A study of Homo sapiens with 4 samples.

Results

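The GIMAP genes encode the GTPases of immunity-associated proteins, and the 7 protein-coding members GIMAP1, GIMAP2, GIMAP4, GIMAP5, GIMAP6, GIMAP7 and GIMAP8 are described here in Jurkat, a line grown from a human T cell leukemia of the acute lymphoblastic type (T-ALL). They were picked by gene symbol, which gave 7 of the 64252 gene IDs in the count table, and all 7 were counted in each library. The knockdown cells carried a short hairpin RNA against the transcription factor SOX4 (sh-SOX4, 2 libraries), and the control cells of the same line carried a scrambled hairpin (sh-Scb, 2 libraries). The sources used here give neither the hairpin sequence nor the time of harvest, and no label ties a library to a culture of its own. The p-values therefore measure only the spread between these libraries, which may be technical. The family was proposed with its own values in this contrast in view, so those values are given as a description and with no p-value for a member.

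GIMAP proteins share a GTP-binding domain related to that of plant AIG1 proteins, and several are anchored in intracellular membranes by a hydrophobic tail. They are found mainly in lymphocytes, where loss of individual members in rodents reduces the survival of T cells. In T-ALL lines, an enhancer within the gene cluster is known to be bound by the TAL1 complex of transcription factors.

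Totals per library were 32872606 and 30830081 counts in sh-SOX4 and 36636219 and 29093287 counts in sh-Scb. Levels are CPM, counts relative to a library size scaled by the trimmed mean of M-values (TMM), and each log2 fold change is sh-SOX4 over sh-Scb. SOX4 itself was at 195 ± 5.61 CPM in sh-SOX4 and 274 ± 4.26 CPM in sh-Scb (SD, n = 2 each), so that 71.1% of the control level was left. Its edgeR quasi-likelihood adjusted p (Benjamini-Hochberg, over the 19897 IDs tested) was 1.24e-05. In bulk RNA, fewer cells of a kind and less RNA per cell cannot be told apart.

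All 7 members were higher in sh-SOX4 than in sh-Scb, and in none of them did the libraries of the groups overlap. Summed over the family, the level was 349 ± 13.6 CPM in sh-SOX4 and 160 ± 4.53 CPM in sh-Scb (SD, n = 2 each), a ratio of 2.18. The median log2 fold change of the 7 members was 1.13, beside -0.01 over all tested IDs. The difference was 3.14-fold for GIMAP5 and 1.38-fold for GIMAP4, with the other 5 between them. Both sh-SOX4 libraries also lay above both sh-Scb libraries in 36.3% of all tested IDs and in 41.9% of the protein-coding ones. All 7 passed the filter on low counts, and all 7 are among the IDs with an adjusted p under 0.05 in the fit over the whole table. That fit called 44.1% of all tested IDs, 23.2% as higher and 20.9% as lower, and nothing is read from the count of members, since the family was proposed on this contrast.

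**Figure D1:**
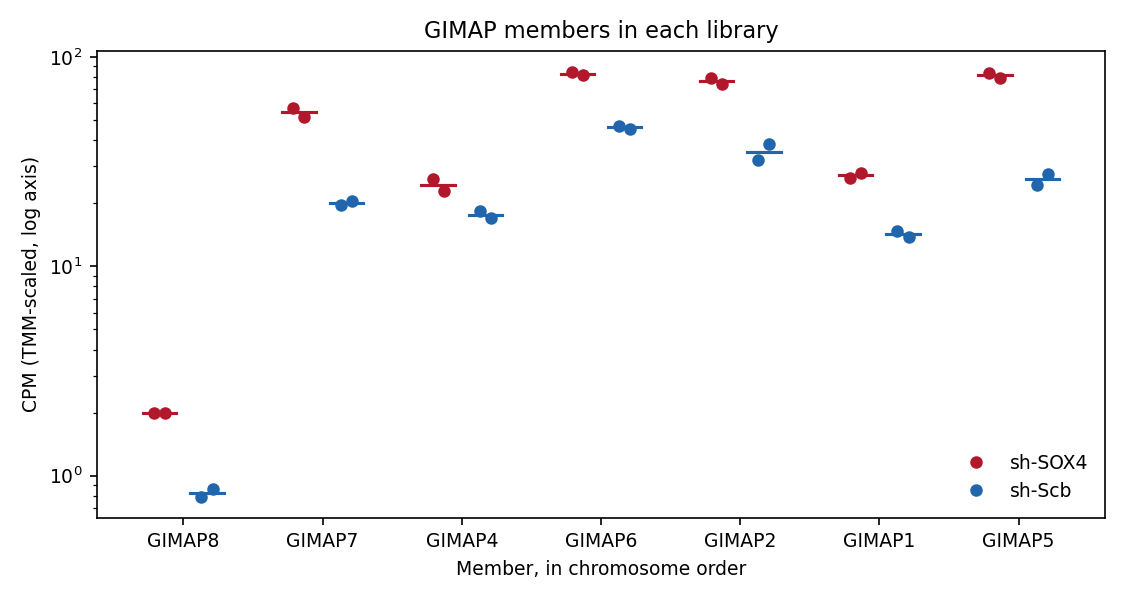
Level of each GIMAP member in each library, in CPM scaled by TMM on a log axis, with members in chromosome order. Points are libraries and bars are group means (n = 2 each). In every member both sh-SOX4 points lie above both sh-Scb points, in GIMAP8 at means of 1.98 CPM in sh-SOX4 and 0.828 CPM in sh-Scb.

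GIMAP5, whose loss causes lymphopenia in rats and mice, had the largest difference of the family. The sh-SOX4 libraries held 2657 and 2367 counts of it, against 927 and 828 counts in the sh-Scb libraries. These counts correspond to 83.8 and 79.5 CPM in sh-SOX4 and 24.5 and 27.5 CPM in sh-Scb. The 2 libraries of each group lay close together and the groups far apart. GIMAP5 thus had a log2 fold change of 1.65 (SE 0.075), and 1.01% of all tested IDs had a larger one. Of the exonic bases annotated to GIMAP5, 35.6% also belong to other annotated genes, among them GIMAP1 and the readthrough gene GIMAP1-GIMAP5. The readthrough gene had no ID of its own in the counts and could not be analysed. How the authors' counting divided reads of such transcripts is not given, so the values of GIMAP1 and GIMAP5 are uncertain. Counted together as 1 unit, GIMAP1 and GIMAP5 had a log2 fold change of 1.43.

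GIMAP7 and GIMAP2 are partners in structural work on the human proteins, in which GIMAP7 speeds up GTP hydrolysis by GIMAP2, a protein seen on lipid droplets of Jurkat cells. GIMAP7 was at 56.8 and 51.6 CPM in sh-SOX4, against 19.6 and 20.5 CPM in sh-Scb. Its log2 fold change of 1.44 (SE 0.086) was the next after GIMAP5. GIMAP2 was at 79.2 and 74.2 CPM in sh-SOX4, against 32.1 and 38.3 CPM in sh-Scb. The sh-Scb libraries were further from each other here than in most members, and the log2 fold change was 1.13 (SE 0.088).

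The bases before the start sites of GIMAP5, GIMAP7 and GIMAP2 are shown because, of the members above 10 CPM in every library, these 3 had the largest differences. They come from RefSeq on GRCh38.p14 and end before the next annotated exon base, with E-boxes CAGNTG in capitals. E-boxes are the letters that TAL1 and its E protein partners read. The stretches are chr7:150737168-150737347 for GIMAP5, chr7:150514622-150514829 for GIMAP7 and chr7:150685456-150685696 for GIMAP2, all on the plus strand. That of GIMAP5 lies inside the annotated gene, which starts at 150722253 and has 7 transcripts, so this RefSeq start is not its outermost start.
GIMAP5: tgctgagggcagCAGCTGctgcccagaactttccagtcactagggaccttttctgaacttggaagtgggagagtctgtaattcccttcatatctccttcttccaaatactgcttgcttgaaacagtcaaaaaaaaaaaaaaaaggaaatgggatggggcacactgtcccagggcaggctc
GIMAP7: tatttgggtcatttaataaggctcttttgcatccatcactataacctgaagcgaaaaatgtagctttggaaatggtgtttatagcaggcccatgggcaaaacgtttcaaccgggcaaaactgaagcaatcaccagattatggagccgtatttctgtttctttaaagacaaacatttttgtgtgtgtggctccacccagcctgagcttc
GIMAP2: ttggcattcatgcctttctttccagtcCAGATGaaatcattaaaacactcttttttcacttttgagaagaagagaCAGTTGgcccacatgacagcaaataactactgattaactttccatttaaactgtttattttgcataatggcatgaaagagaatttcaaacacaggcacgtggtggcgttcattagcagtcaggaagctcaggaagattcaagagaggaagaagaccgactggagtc

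Motifs were searched on both strands of the 300-base promoters, which run from 250 bases before to 50 bases after each RefSeq start, and all 7 members were matched. The E-box CAGNTG was in 4 of 7, those of GIMAP2, GIMAP4, GIMAP5 and GIMAP6, and in 49.9% of all 35116 promoters. In GIMAP5 it lies at positions -238 to -233 from the RefSeq start used here and reads the same on both strands. In GIMAP2 the pair lies at -223 to -218 and -175 to -170. The matches of GIMAP4, at -86 to -81, and GIMAP6, at -148 to -143, lie past the first base annotated as exon of the same gene. The SOX core ACAAT was in 2 of 7 and in 27.4% of all promoters, and both matches, in GIMAP4 and GIMAP8, lie after the start. The SOX core ACAAAG was in none of the 7, beside 16.1% of all promoters. The GATA motif AGATAA, the RUNX motif TGTGGT and the ETS motif CCGGAA were also in none of the 7, beside 10.3% of all promoters for GATA, 13.1% for RUNX and 17.2% for ETS. The MYB motif AACNG, which overlaps 1 of the GIMAP2 E-boxes, was in 6 of 7 and in 77.2% of all promoters. GC content ran from 40.3% in GIMAP2 to 50.7% in GIMAP1, beside a median of 58.7% over all promoters.

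GIMAP1, which mature T and B cells of mice need, was at 26.5 and 27.8 CPM in sh-SOX4 and at 14.8 and 13.8 CPM in sh-Scb. The log2 fold change was 0.92 (SE 0.10), and both sh-SOX4 libraries were above the controls. GIMAP6, which is linked to autophagy through the ATG8-type protein GABARAPL2, was at 84.6 and 81.7 CPM in sh-SOX4 and 46.6 and 45.3 CPM in sh-Scb. Its log2 fold change was 0.86 with the smallest SE of the family, 0.059.

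GIMAP4, which promotes T cell death in rodents, had the smallest difference. It had 826 and 678 counts in sh-SOX4, against 694 and 510 counts in sh-Scb, or 26.0 and 22.8 CPM in sh-SOX4 and 18.4 and 16.9 CPM in sh-Scb. The lower sh-SOX4 library was 1.24 times the higher sh-Scb library, the narrowest gap among the 7. The log2 fold change was 0.47 (SE 0.11), and 19.0% of all tested IDs had a larger one. GIMAP8, a larger protein with repeated GTP-binding domains, was thinly counted. It had 63 and 59 counts in sh-SOX4, against 30 and 26 counts in sh-Scb, and its log2 fold change of 1.26 carried the largest SE of the family, 0.31.

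**Figure D2:**
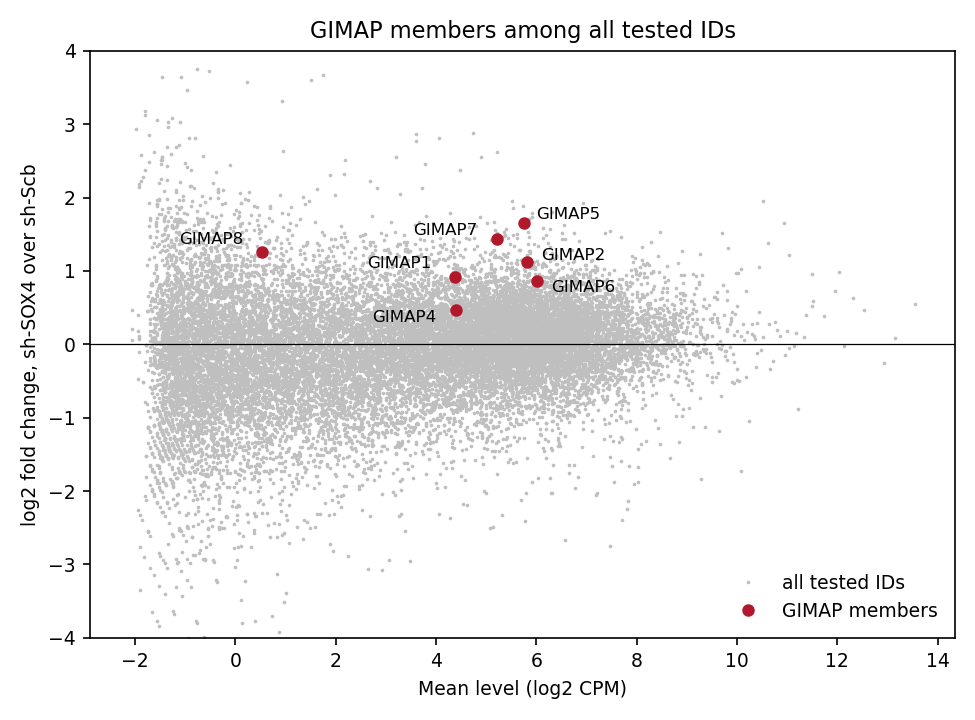
log2 fold change (sh-SOX4 over sh-Scb) against mean level (log2 CPM) for all tested IDs in grey and the GIMAP members in red. All 7 members lie above 0, and 4 of them at a log2 fold change of 1 or more, where 4.86% of all tested IDs lie. The vertical axis ends at 4 in either direction, and 31 IDs beyond it are not drawn.

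The make-up of the family differed between the groups as well, in a measure that no scaling between libraries enters. The members together had 11381 and 10110 counts in the sh-SOX4 libraries, against 5926 and 4914 in the sh-Scb libraries. GIMAP5 held 23.4% ± 0.047 of these counts in sh-SOX4 and 16.2% ± 0.853 in sh-Scb (SD, n = 2 each). The share of GIMAP7 was 15.5% ± 0.447 in sh-SOX4 and 12.5% ± 0.0103 in sh-Scb. GIMAP6 and GIMAP4 took smaller shares in sh-SOX4 although their levels were higher. GIMAP6 held 23.8% ± 0.347 in sh-SOX4 and 28.7% ± 1.39 in sh-Scb, and GIMAP4 held 7.26% and 6.71% in the sh-SOX4 libraries, against 11.7% and 10.4% in the sh-Scb libraries. GIMAP2 held 22.0% in each group, with the sh-SOX4 libraries inside the range of the sh-Scb libraries. The 95% Wilson interval of a share in 1 library reached at most 1.25 percentage points to either side, which covers counting error only.

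**Figure D3:**
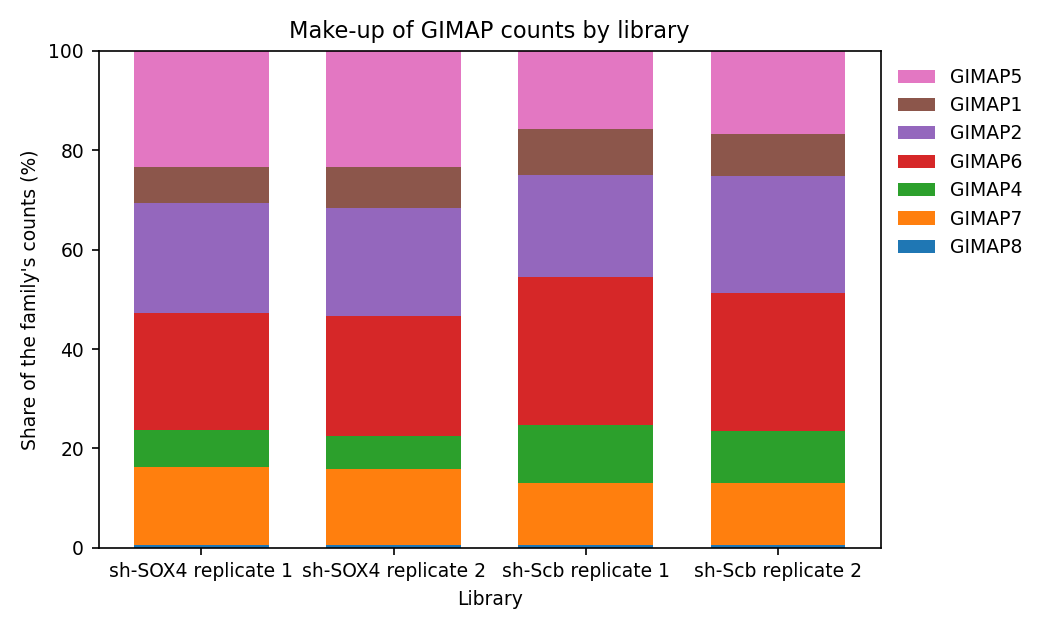
Share of the family's counts held by each member (%), in each of the 4 libraries, stacked in chromosome order with GIMAP8 at the bottom. GIMAP5, at the top, fills 23.4% of the sh-SOX4 bars and 16.2% of the sh-Scb bars on average, while GIMAP4 fills at most 7.26% of a sh-SOX4 bar and at least 10.4% of a sh-Scb bar.

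To set the levels of different members side by side, they were taken per length, in CPM per kilobase of exons annotated in GENCODE release 29. In sh-SOX4, GIMAP7 led with 43.1 ± 2.92, followed by GIMAP2 with 36.6 ± 1.69, GIMAP6 with 21.3 ± 0.518, GIMAP5 with 13.5 ± 0.5, GIMAP4 with 11.1 ± 1.05, GIMAP1 with 5.60 ± 0.199 and GIMAP8 with 0.474 ± 0.000744 (SD, n = 2). The GIMAP8 value rests on 63 and 59 counts, so its small SD understates its uncertainty. In sh-Scb, GIMAP2 at 16.8 ± 2.12 and GIMAP7 at 16.0 ± 0.465 did not differ beyond their spread. GIMAP6 followed with 11.7 ± 0.233, GIMAP4 with 8.05 ± 0.459, GIMAP5 with 4.31 ± 0.348, GIMAP1 with 2.95 ± 0.151 and GIMAP8 with 0.198 ± 0.0118 (SD, n = 2). GIMAP5 therefore stood above GIMAP4 in sh-SOX4 and below it in sh-Scb. The place of GIMAP5 depends on the length taken: per kilobase of its RefSeq-paired transcript it was at 35.6 ± 1.32 in sh-SOX4 and 11.4 ± 0.917 in sh-Scb, above GIMAP4 at 11.8 ± 1.12 in sh-SOX4 and 8.57 ± 0.489 in sh-Scb. With that length GIMAP2, at 52.9 ± 2.44 in sh-SOX4 and 24.3 ± 3.07 in sh-Scb, led the family in both groups.

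All members lie in 1 cluster of 299 kb on chromosome 7, from 150450630 to 150750033 on GRCh38, with GIMAP8, GIMAP7, GIMAP4, GIMAP6, GIMAP2, GIMAP1 and GIMAP5 in this order. GIMAP6 is on the minus strand and the other 6 are on the plus strand. The difference did not follow the order: GIMAP4, between GIMAP7 and GIMAP6, had the smallest log2 fold change, and GIMAP5 at the far end had the largest. Most members had few or no bases in common with other genes at the length of a short read. No run of 50 bases in annotated transcripts of GIMAP4, GIMAP6, GIMAP7 or GIMAP8 occurred in a transcript of another gene, and 2.6% of those of GIMAP2 did. The share was 10.3% for GIMAP1 and 32.3% for GIMAP5, and with the readthrough gene left aside 2.4% for GIMAP1 and 5.2% for GIMAP5. The pseudogene GIMAP3P, on the strand opposite to GIMAP5, had 8 and 5 counts in sh-SOX4 and 4 and 5 counts in sh-Scb, too few for the filter. BET1P1, at the end of GIMAP5 and sharing exonic bases with it, had 19 and 21 counts in sh-SOX4 and 10 and 4 counts in sh-Scb.

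The neighbours of the cluster, chosen by position, did not all rise with it. Of 24 protein-coding genes within 500 kb on either side, 20 were tested, 7 rose (REPIN1, NOS3, CDK5, FASTK, SLC4A2, TMUB1 and ABCF2) and 1, AGAP3, fell. That is 40.0% of those tested, beside 53.5% of all protein-coding IDs, 29.5% as higher and 24.0% as lower. The lower share of calls thus lay in the genes that fell, 1 of 20, and not in those that rose, 7 of 20. The median log2 fold change of the tested neighbours was 0.10, beside 0.034 over all protein-coding IDs. The nearest tested genes on either side did not pass. ZNF775, a zinc finger gene 52.0 kb before GIMAP8, was at 22.2 ± 0.0957 CPM in sh-SOX4 and 24.3 ± 0.335 CPM in sh-Scb (SD, n = 2 each), with a log2 fold change of -0.13 (SE 0.092) and an edgeR adjusted p of 0.27. Other annotated genes share 27.2% of the exonic bases of ZNF775. AOC1, a diamine oxidase gene 74.6 kb after GIMAP5, had a log2 fold change of -0.78 (SE 0.35) and an edgeR adjusted p of 0.102. It was thinly counted, at 0.921 ± 0.258 CPM in sh-SOX4 and 1.58 ± 0.267 CPM in sh-Scb (SD, n = 2 each), so a difference could be missed. REPIN1, 76.6 kb before GIMAP8 and at 104 ± 3.94 CPM in sh-SOX4, rose by 0.38 (SE 0.056) with an edgeR adjusted p of 0.000371. AGAP3 was at -0.29, and its edgeR adjusted p of 0.0194 was 0.0521, 0.0765 and 0.0737 without sh-SOX4 replicate 1, sh-SOX4 replicate 2 or sh-Scb replicate 1. TMUB1 was at 0.31, and its edgeR adjusted p of 0.0116 was 0.0916 without sh-SOX4 replicate 2 and 0.0602 with library totals. TMEM176A and TMEM176B, which lie nearer than AOC1, had 0 counts in both sh-SOX4 libraries and at most 4 in an sh-Scb library.

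Farther out, NOS3, the endothelial nitric oxide synthase gene 241 kb after the cluster, rose to 26.0 ± 1.79 CPM in sh-SOX4, against 10.5 ± 0.292 CPM in sh-Scb (SD, n = 2 each). Its log2 fold change of 1.30 (SE 0.11) was within the range of the GIMAP members, with an edgeR adjusted p of 7.67e-06, and 13.2% of its exonic bases are shared with ATG9B, which had a log2 fold change near 0. ABCF2, an ATP-binding cassette gene 462 kb away, rose by 0.97 (SE 0.052) with an edgeR adjusted p of 4.75e-07, and 45.8% of its exonic bases are shared with another annotated gene. ASIC3 had the largest negative value, -0.89 (SE 0.43), with an edgeR adjusted p of 0.142. Its sh-SOX4 libraries disagreed, with 40 and 100 counts against 148 and 140 in sh-Scb, and without sh-SOX4 replicate 2 the adjusted p was 0.000671.

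**Figure D4:**
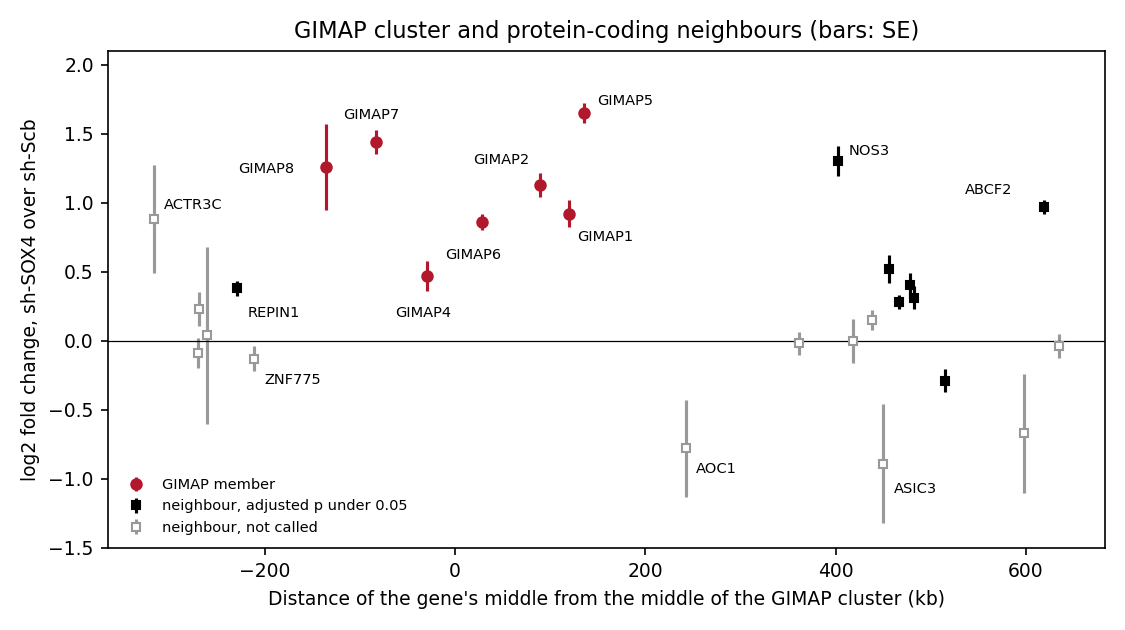
log2 fold change (sh-SOX4 over sh-Scb) of GIMAP members (red) and tested protein-coding neighbours (squares, filled where the edgeR adjusted p was under 0.05) against the distance of each gene's middle from the middle of the cluster, in kb. Bars are 1 SE. The nearest tested neighbours, ZNF775 at -0.13 and the thinly counted AOC1 at -0.78, lie below 0, while NOS3 reaches 1.30.

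Further lists hold known regulators, partners and relatives of the family, and their calls are read against the 53.5% of protein-coding IDs called, 29.5% as higher and 24.0% as lower. Of 9 TAL1 complex and enhancer factors, 4 rose and none fell, with a median of 0.31. TAL1, the helix-loop-helix factor that names the complex, rose to 363 ± 7.04 CPM in sh-SOX4, against 225 ± 0.096 CPM in sh-Scb (SD, n = 2 each), with an edgeR adjusted p of 9.07e-07. MYB rose by 0.46 (SE 0.041), TCF3 by 0.39 (SE 0.044) and TCF12 by 0.31 (SE 0.042), the last 2 being E proteins. GATA3 and RUNX1 had log2 fold changes of -0.06 and -0.02 and did not pass. With scaling to library totals 4 of the 9 rose and 3 fell, namely LMO1, GATA3 and RUNX1. LMO1, at -0.62 with an edgeR adjusted p of 0.0786, was also called without sh-SOX4 replicate 1 (0.013) and without sh-Scb replicate 1 (0.0433).

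In the Notch list, a pathway reported upstream of GIMAP5 in T cell precursors, 1 of 9 genes rose and 3 fell, with a median of -0.30. With library totals none rose and 5 fell. RBPJ, the DNA-binding partner of Notch, fell to 88.0 ± 0.902 CPM in sh-SOX4, against 277 ± 4.34 CPM in sh-Scb (SD, n = 2 each). Its edgeR adjusted p was 1.12e-08, and its 4 annotated pseudogene copies could take or give reads. NOTCH3 fell by 1.56 on the log2 scale (SE 0.11). NOTCH1 was at -0.18 on the log2 scale (edgeR adjusted p 0.0173), and its adjusted p was 0.103 without sh-SOX4 replicate 1 and 0.0788 without sh-Scb replicate 2. DTX1 was at 0.31 (edgeR adjusted p 0.0088), and its adjusted p was 0.0876 without sh-SOX4 replicate 2 and 0.0501 with library totals.

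Genes of resting T cells, in which GIMAP levels are known to be high, went both ways. Of 16 tested, 4 rose and 3 fell, with a median of -0.05, and with library totals 2 rose and 5 fell. S1PR1, the receptor that guides exit from lymph nodes, was at 0.51 on the log2 scale (edgeR adjusted p 0.00918), and its adjusted p was 0.0595 without sh-Scb replicate 1. LEF1 and FOXP1, transcription factors, had log2 fold changes of 0.14 and 0.23, and neither was called with library totals, where the edgeR adjusted p was 0.454 for LEF1 and 0.2 for FOXP1. Each also lost its call when 1 library was left out, with an adjusted p of up to 0.166 for LEF1 and 0.182 for FOXP1 without sh-SOX4 replicate 2. PIK3IP1, an inhibitor of PI3K, fell by 1.48 (SE 0.15), the homing receptor CCR7 fell by 0.67 (SE 0.13) and BTG1 fell by 0.34 (SE 0.080).

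Of 12 reported partners and linked pathway genes of GIMAP proteins, 1 rose and 8 fell, with a median of -0.27, and with library totals 1 rose and 9 fell. The riser was BAX, a pro-apoptotic BCL2 family member, with 51.2 ± 0.428 CPM in sh-SOX4 and 31.9 ± 1.65 CPM in sh-Scb (SD, n = 2 each) and an edgeR adjusted p of 5.64e-05. MCL1, a survival member of that family, fell to 161 ± 6.17 CPM in sh-SOX4, against 229 ± 4.54 CPM in sh-Scb (SD, n = 2 each). Of the autophagy genes in the list, GABARAP fell by 0.36 (SE 0.048), GABARAPL1 fell by 0.48 (SE 0.077) and MAP1LC3B fell by 0.26 (SE 0.051). GABARAPL2, the reported GIMAP6 partner, was at -0.29 (SE 0.073). Of the exonic bases of GABARAP, 55.7% are shared with other annotated genes. BCL2L11, a pro-apoptotic gene, fell by 0.29 (SE 0.066). AKT1 and GSK3B, kinase genes, were at -0.17 and -0.15, and lost their calls without sh-SOX4 replicate 1, with edgeR adjusted p of 0.162 and 0.083. GSK3B also lost it without sh-SOX4 replicate 2 (0.123) and without sh-Scb replicate 1 (0.0501). The edgeR adjusted p of GABARAPL2 was 0.00935, and its call was lost at 0.0521 without sh-SOX4 replicate 2 and 0.0657 without sh-Scb replicate 1.

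Other GTPase genes of lymphocytes and the interferon response were mixed. Of 15 tested, 4 rose and 1 fell, with a median of 0.10, and with library totals 3 rose and 4 fell. GBP1, an interferon-induced guanylate-binding protein, rose to 18.8 ± 0.423 CPM in sh-SOX4, against 6.94 ± 0.0544 CPM in sh-Scb (SD, n = 2 each), with an edgeR adjusted p of 6.98e-06 and a log2 fold change of 1.44, that of GIMAP7. RAC2 rose by 0.25 (SE 0.044), and IRGQ fell by 0.46 (SE 0.081). GBP3 was at 0.60 on the log2 scale (edgeR adjusted p 0.0107), and its adjusted p was 0.0759 without sh-SOX4 replicate 1. RAB27A was at 0.21 (edgeR adjusted p 0.014), and its adjusted p was 0.138 with library totals, 0.0883 without sh-SOX4 replicate 2 and 0.0861 without sh-Scb replicate 2.

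**Figure D5:**
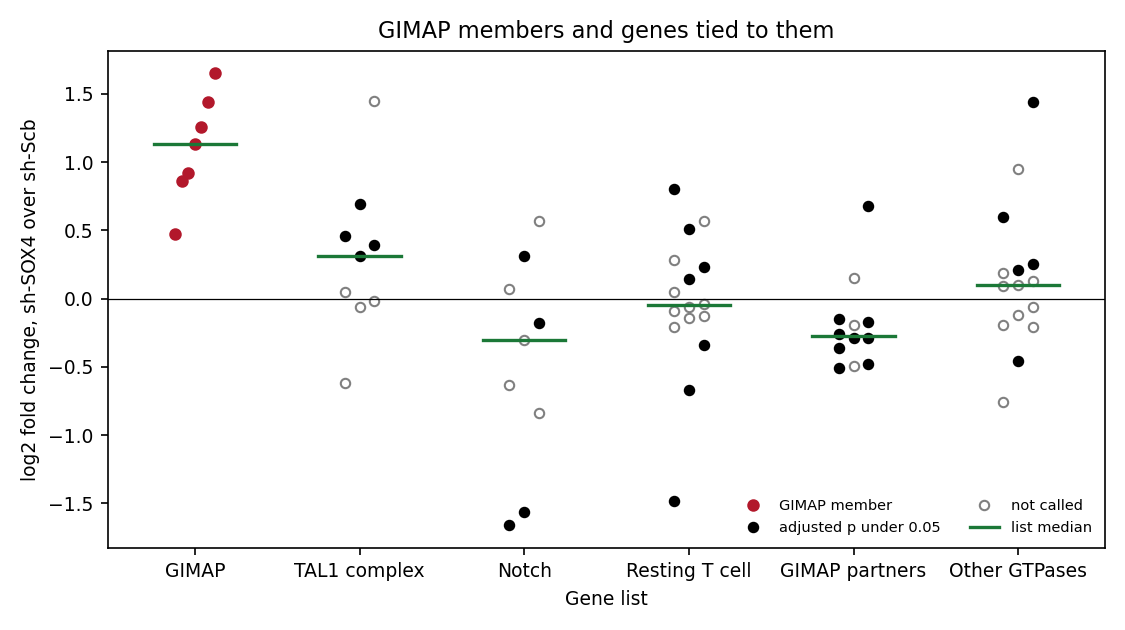
log2 fold change (sh-SOX4 over sh-Scb) of the GIMAP members and of each tested gene in 5 lists, 1 point per gene. Filled points had an edgeR adjusted p under 0.05 and green lines are list medians, which run from -0.30 for Notch to 0.31 for the TAL1 complex, beside 1.13 for the GIMAP members.

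The gene profiles nearest to GIMAP6, taken as the start because its mean CPM, without regard to length, was the highest of the family, were those of EIF2S1, AKAP2 and WDR73, at Euclidean distances of 0.00332, 0.0126 and 0.0185 between centred log2 CPM over the 4 libraries. Among 11680 genes compared, 193 were nearer to GIMAP6 than GIMAP1, its nearest relative in the family at 0.118. Only genes with a symbol and a mean log2 CPM of at least 2 were compared, which left out GIMAP8. With 2 libraries per group, a small distance mostly reflects a like log2 fold change: 0.86 for EIF2S1 and 0.85 for AKAP2 and WDR73, beside 0.86 for GIMAP6.

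Defining T cell markers were present throughout. The 8 T cell markers summed to 1800 and 1850 CPM in sh-SOX4 and to 1430 in each sh-Scb library. Of these, CD3G, PTPRC, CD3E, CD3D and CD2 rose, CD3G most, by 1.02 (SE 0.059). CD5 was at -0.22 with an edgeR adjusted p of 0.00824, and at -0.18 without sh-SOX4 replicate 1. CD7 was at -0.17 (edgeR adjusted p 0.0519, and 0.00654 with library totals). TRBC1 was at -0.38 (0.668), and its libraries disagreed, with 2068 and 4224 counts in sh-SOX4 and 5808 and 3463 in sh-Scb. The calls were 75.0% of the 8, beside 53.5% of all protein-coding IDs, and with library totals 5 rose and 2 fell. Endothelial markers, of a cell type that also expresses GIMAP genes, summed to 140 and 136 CPM in sh-SOX4 and 115 and 107 CPM in sh-Scb. Nearly all of this was PECAM1, which rose by 0.32 (SE 0.052) and was 1 of 2 tested among 6, while CDH5 had 0 counts in every library. B cell markers summed to 15.9 and 14.8 CPM in sh-SOX4 and 68.8 and 67.2 CPM in sh-Scb. Of 4 tested among 5, CD79A fell by 2.32 (SE 0.079), and it held most of the sum. CD22 fell and CD79B rose, each with group means under 2 CPM, and CD79B had an edgeR adjusted p of 0.186 without sh-SOX4 replicate 1. Myeloid markers summed to between 6.42 and 10.5 CPM, with CD68 the only 1 of 4 tested to pass, lower in sh-SOX4, and LYZ at 0 counts in every library. Of the exonic bases of CD68, 85.8% are shared with other annotated genes. NK cell markers summed to between 8.67 and 9.87 CPM, with GNLY, at under 1 CPM, the only 1 of 3 tested to pass, lower in sh-SOX4. With all libraries kept, GNLY was not called without the low-count filter, with a replicate block, with DESeq2 or with limma-voom, and CD68 not with limma-voom. Both lost their calls without sh-SOX4 replicate 1, sh-SOX4 replicate 2 or sh-Scb replicate 2, with edgeR adjusted p of 0.0545, 0.123 and 0.301 for CD68 and 0.135, 0.09 and 0.426 for GNLY. The part of these marker differences in the GIMAP values was not tested.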

How the data were processed

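Gene counts of 4 Jurkat RNA-seq libraries were used. The authors deposited raw counts per Ensembl gene ID. Tools named in the submitters' processing notes are HISAT2 (2.2.0) and StringTie, with build hg38. Their roles, the annotation release and the strand setting were not given there, so overlapping and antisense genes cannot be told apart. The columns named NC were taken as sh-Scb, since the others name SOX4.

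IDs passing filterByExpr (minimum count 10, minimum total 15) were scaled by TMM and fitted by group in edgeR 4.0.16 (R 4.3.3; robust quasi-likelihood, two-sided), with Benjamini-Hochberg adjustment over 19897 IDs and a threshold of 0.05. An SE is the log2 fold change over the root of F. Alternatives included DESeq2 1.42.0 and limma-voom (limma 3.58.1). The pipeline was tested on simulated counts. Coordinates and exons came from GENCODE 29 (GRCh38).

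Replicates differed by more than sampling noise (median chi-square over genes 1.6 in sh-SOX4 and 1.71 in sh-Scb, against 0.455), so each library counted as 1 sample. A total of 3 counts equals 0.0819 to 0.103 CPM.

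Members and lists were chosen with earlier results of these data known. Named genes were SOX4, the members, GIMAP3P, the nearest tested and the 3 most changed neighbours, the 3 smallest adjusted p of each list with calls against its majority, and the 3 profiles nearest to the most counted member. Other genes were named after their values were seen. A result for 1 of the genes this rule names is not reported here.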

Additional observations from a re-analysis of the deposited data

How the results depend on the processing

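Scaling (median-ratio factors or library totals), the filter on low counts (none, or 10 CPM in 2 libraries), a replicate block, leaving out single libraries, DESeq2 and limma-voom were the alternatives. All 78 log2 fold changes of members under these settings, and with GIMAP1 and GIMAP5 summed, were above 0. The value of the summed pair is among the 78 under each of its genes. These settings refit the same libraries, and the family was proposed on this contrast, so the common sign is a description and not separate support. The log2 fold changes ran from 1.55 to 1.73 for GIMAP5 counted alone and from 0.37 to 0.56 for GIMAP4. GIMAP8 did not pass the 10 CPM filter and has no value there. With library totals 40.8% of all calls were higher, in place of 52.5%, with a median log2 fold change of -0.109 over all IDs and 1.03 over the members. That scaling gave 7 calls among the TAL1 complex factors (4 higher, 3 lower) in place of 4. With the replicate block, which the labels do not say marks a shared batch, 8378 IDs were called in place of 8775, and the deviations of same-numbered libraries had a correlation of -0.0103. Leaving out each library gave 7467 to 8294 calls over all IDs, 7 to 8 among the neighbours, and a SOX4 log2 fold change between -0.525 and -0.459. Per-length levels with the RefSeq-paired transcript were added after seeing the data. Depth limits GIMAP8 and the pseudogenes most, and 2 libraries per group limit every SE.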
